A study of Mus musculus and Ochotona curzoniae and Rattus norvegicus with 18 samples.

Results

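The genes described here carry glucose into the cell, split it to pyruvate and pass pyruvate on to lactate, the mitochondrion or the pentose phosphate branch, and they were compared between cultured fibroblasts of the Tibetan pika and of the mouse. A list of 37 gene symbols was matched to pika rows by symbol and to mouse rows by the Ensembl identifier that carries the same upper-cased symbol. Of these, 35 were matched once in both species, out of 14418 genes joined in the same way. The hexokinase gene HK1 and the glucose transporter gene SLC2A3 were matched in mouse only, so the pairs HK1 with HK2 and SLC2A1 with SLC2A3 are not analysed here. The aldolase gene ALDOC was joined but stayed under a mean of 1 FPKM in both species, which left 34 genes tested.

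The study set out to find where EPAS1 (HIF-2α, a subunit of the hypoxia-inducible transcription factors) binds and how much clock gene mRNA is made in several species. RNA was sequenced from fibroblasts of 4 species in 12 libraries, and the 3 libraries of Tibetan pika (Ochotona curzoniae, a small relative of rabbits from high plateaus) and the 3 of C57BL/6J mouse are used here. The rat and rabbit tables give Ensembl identifiers that were not paired with symbols, and they and the 6 ChIP-seq samples are not analysed here. In both species the cells grew in DMEM with 10% fetal bovine serum and 1% of an additive abbreviated PS, at 37 °C in 5% CO2, and were lysed at 90% confluency; the labels give no treatment, no genetic change and no animal age for these libraries. The labels give the tissue as epidermis and the cells as fibroblasts. VIM and COL1A1 were the most abundant of the fibroblast markers in both species, and all 11 joined markers in pika and 10 in mouse were at or above 1 FPKM. Single fibroblast markers differed widely: COL3A1 was 41.7 times, PDGFRA 18.7 times and FBN1 6.17 times higher in mouse, and FAP 33.9 times higher in pika. Of the 8 joined keratinocyte markers, 6 were at 0 in pika, KRT5 and KRT14 among them, but DSC3 averaged 22.3 ± 0.632 there against 0.513 ± 0.742 in mouse. Every other joined keratinocyte marker had its higher mean in mouse, led by SFN (10.8, against 1.05 for pika) and KRT10 (5.04, against 0). The mouse values of KRT5, KRT14 and KRT15 rested on 1 read each. The labels do not say if a species' libraries are from different animals or different cultures, so p-values measure only the spread between these samples. Species also coincides with the annotation, the alignment and the culture, and these cannot be told apart from it. In bulk RNA, fewer cells of a type and less RNA per cell cannot be told apart either.

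Glucose enters fibroblasts mainly through SLC2A1 (GLUT1) and is trapped by hexokinase, and phosphofructokinase then commits it to glycolysis. Pyruvate kinase yields pyruvate, which lactate dehydrogenase turns into lactate for export through monocarboxylate transporters, or which enters the mitochondrion through the MPC1-MPC2 carrier to be oxidised by the pyruvate dehydrogenase complex, whose activity the PDK kinases restrain. Many of these genes are textbook targets of hypoxia-inducible factors, and PDK1, LDHA and SLC2A1 are among the best known.

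Because the study concerns EPAS1, the mouse promoters of 4 genes described below are shown, from RefSeq on build GRCm38.p6. They run 5′ to 3′ from 250 bases before to 50 bases after an annotated start. Ldha has 2 such windows, and the first one, shown here, lies within the gene, which begins at base 46842274. Capitals mark matches to the core of the hypoxia-response element (ACGTG or GCGTG, searched on both strands), including those that form the palindrome CACGTG, an E-box that overlaps ACGTG and so counts once on each strand.
Slc2a1, chr4:119108495-119108794, forward strand: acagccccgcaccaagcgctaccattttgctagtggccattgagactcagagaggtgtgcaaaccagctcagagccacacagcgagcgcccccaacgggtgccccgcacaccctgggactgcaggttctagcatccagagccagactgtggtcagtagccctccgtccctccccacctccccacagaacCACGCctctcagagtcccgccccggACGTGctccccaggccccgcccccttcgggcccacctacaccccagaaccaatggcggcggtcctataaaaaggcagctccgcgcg
Ldha, chr7:46845554-46845853, forward strand: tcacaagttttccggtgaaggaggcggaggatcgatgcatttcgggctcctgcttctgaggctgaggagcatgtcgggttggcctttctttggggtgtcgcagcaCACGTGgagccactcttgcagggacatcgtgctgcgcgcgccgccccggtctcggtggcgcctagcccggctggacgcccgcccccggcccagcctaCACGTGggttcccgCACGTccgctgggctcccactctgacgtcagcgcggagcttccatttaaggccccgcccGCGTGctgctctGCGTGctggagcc
Ldhb, chr6:142507908-142508207, reverse strand: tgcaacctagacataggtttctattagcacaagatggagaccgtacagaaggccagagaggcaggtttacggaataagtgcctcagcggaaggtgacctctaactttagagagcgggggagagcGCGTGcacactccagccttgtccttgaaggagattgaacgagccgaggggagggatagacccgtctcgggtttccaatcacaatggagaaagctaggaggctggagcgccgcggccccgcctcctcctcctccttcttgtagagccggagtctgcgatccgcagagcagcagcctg
Slc16a1, chr3:104638414-104638713, forward strand: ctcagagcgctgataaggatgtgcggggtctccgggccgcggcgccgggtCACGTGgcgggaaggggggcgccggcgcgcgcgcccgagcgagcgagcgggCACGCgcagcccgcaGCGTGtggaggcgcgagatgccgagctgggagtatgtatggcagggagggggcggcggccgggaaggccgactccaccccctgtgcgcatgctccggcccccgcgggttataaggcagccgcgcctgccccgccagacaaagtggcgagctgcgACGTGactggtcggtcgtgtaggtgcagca
The core motif had 7 matches in the window of Ldha, 5 in that of Slc16a1, 2 in that of Slc2a1 and 1 in that of Ldhb. No other listed gene had more than 4 in its first window. Promoter windows were found for 36 of the 37 genes, and the first window of 29 of them (80.6%) held the core motif, against 11836 of 27025 genes in the table (43.8%) and 5353 of the 8235 tested genes with a window (65%). CACGTG was in 5 of the 36 windows (13.9%), those of Pfkm, Pfkfb2, Ldha, Slc16a1 and Pdk2, against 7.24% of all genes and 10.5% of tested genes. These are matches of letters in mouse sequence and not binding sites. No pika promoter is analysed here.

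Across the pathway, pika exceeded mouse in 12 of the 34 tested genes and fell below it in 4, while 18 were not called. A call needed an adjusted p under 0.05 in limma's trended test over all 10348 tested genes and a difference of at least 1 on the log2 scale. The same rule called 28.7% of all tested genes higher in pika, and 23.5% lower. The adjusted p alone was under 0.05 for 9167 of the 10348 tested genes and for 30 of the 34, so passing it does not set these genes apart. The median log2 difference, pika over mouse, was 0.65 over the 34 genes and 0.21 over all genes. Higher in pika were PFKP, PFKFB1, GAPDH, ENO1, LDHB, SLC16A1, PDK1, PDHB, MPC1, MPC2, PGD and TKT, and lower were SLC2A1, HK2, SLC16A3 and PDK4. Levels below are rescaled FPKM (fragments per kilobase of gene model and sequencing depth, scaled so that the joined genes of each library sum to 1000000), differences are on the scale log2(rescaled FPKM + 1), and means have n = 3 libraries per species.

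Those calls lean on 2 features of the deposited values, the scale of each library and the length of each gene model. The joined genes held 87.1% of the FPKM of each pika library but 37% to 38.3% of that of the mouse libraries, in which the 10 most abundant rows alone took 39.1% to 41%, against 4.31% to 4.32% in pika. On FPKM as deposited, 22 of the 34 genes were called higher and 2 lower, beside 58.3% and 10.7% of all genes, and the median of all genes moved to 1.29. With a median-of-ratios scale the counts were 10 higher and 6 lower, beside 25.0% and 26.2% of all genes, whose median was then 0.04. With upper-quartile scaling they were 10 and 7, beside 24.4% and 26.7%, and with reads not divided by gene length 9 and 6, beside 25.9% and 27.7%. The median of the 34 genes lay above that of all genes by 0.44 on the main scale, 0.59 without rescaling, 0.43 with median-of-ratios and 0.28 without length. SLC2A1 and PDK4, which were lower, and PFKP, LDHB, SLC16A1 and TKT, which were higher, were called the same way in all of these.

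**Figure D1:**
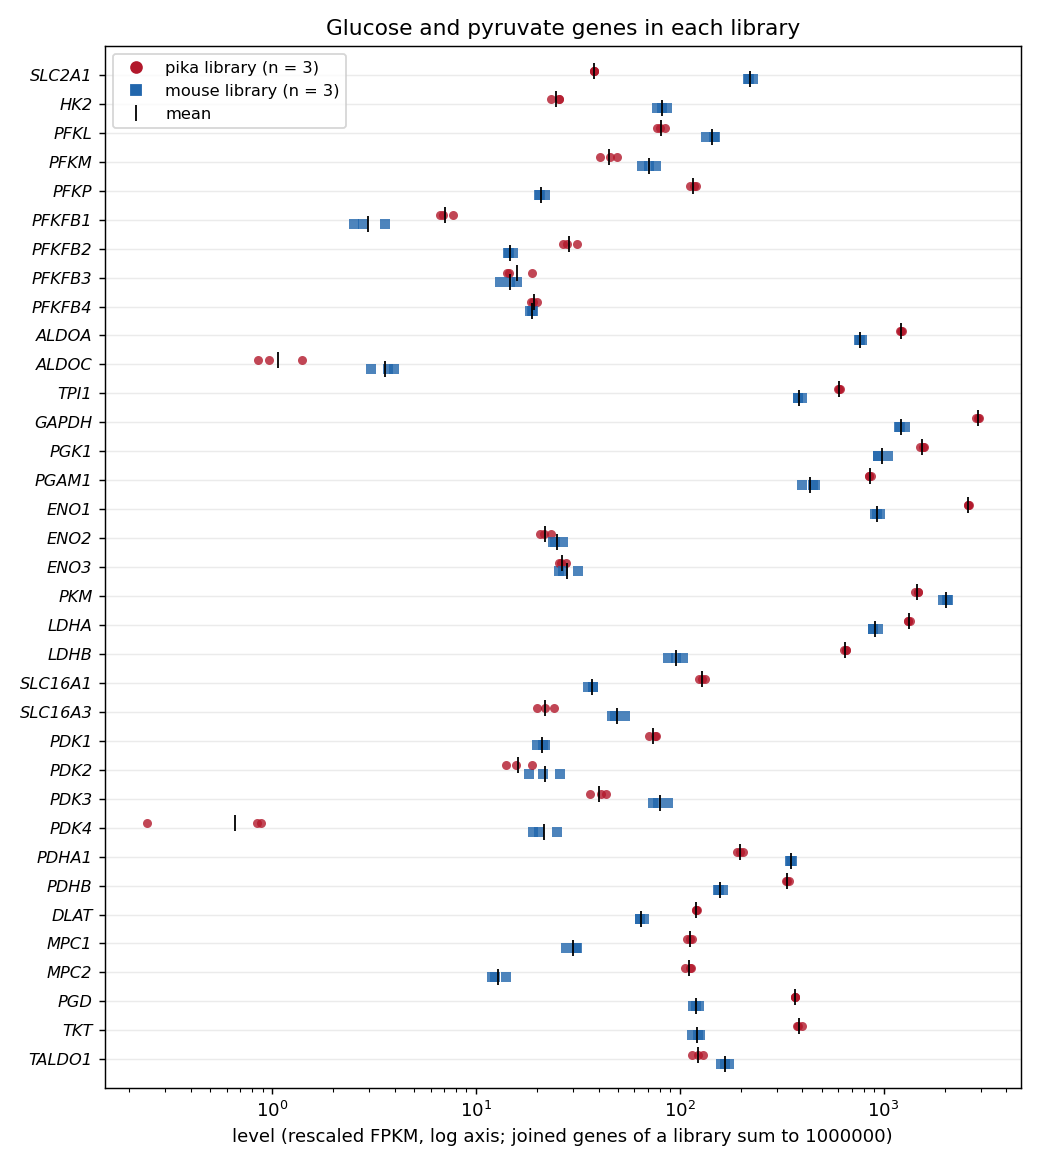
Level of each of the 35 joined genes in each library, as rescaled FPKM on a log axis; red circles are pika libraries, blue squares mouse libraries and black ticks the means of 3 libraries. The pika circles lie left of the mouse squares for SLC2A1, HK2 and PDK4 and right of them for LDHB, PFKP and MPC2, while both overlap for PFKFB3, PFKFB4, ENO3 and PDK2.

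At the entry of the pathway, the transporter gene SLC2A1 and the hexokinase gene HK2 were both lower in pika. HK1 and SLC2A3 were read in mouse only, so the summed levels of the hexokinase and transporter genes were not compared. SLC2A1 stood at 38.0, 38.1 and 38.0 in the pika libraries and at 217.7, 229.6 and 216.3 in the mouse libraries. The groups lay far apart, with a mouse mean 5.82 times that of pika and a log2 difference of -2.51 (SE 0.05, adjusted p = 1.1e-10), or -2.01 without length. Among the joined genes above 0 in a library, SLC2A1 ranked at percentile 55.8 to 56.2 in pika and 93.1 to 93.7 in mouse. HK2, a hexokinase that can bind mitochondria, was at 23.3, 25.5 and 25.7 in pika and at 81.8, 86.6 and 77.5 in mouse. Its log2 difference was -1.68 (SE 0.07, adjusted p = 1.95e-08), -1.70 without length, but -0.40 and not called on FPKM as deposited. In mouse, where HK1 could be read, HK1 (88.95 ± 2.74 SD) and HK2 (81.98 ± 4.54) were at similar levels, and SLC2A3 was at 5.72 ± 0.494.

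The phosphofructokinase genes differed between the species in their mix of isoenzymes. PFKL, PFKM and PFKP, named for liver, muscle and platelet, together came to 243.0 ± 7.86 in pika and 235.4 ± 10.1 in mouse after rescaling, but to 112.4 ± 3.72 and 44.4 ± 2.23 in FPKM as deposited. PFKP was at 120.2, 117.5 and 113.0 in pika and at 21.8, 20.3 and 20.6 in mouse, a log2 difference of 2.43 (SE 0.06, adjusted p = 6.77e-10), or 1.70 without length. PFKP was thus the most abundant of the family in every pika library and the least abundant in every mouse library. PFKL averaged 81.0 ± 3.82 in pika against 143.3 ± 7.77 in mouse, and PFKM 45.1 ± 4.17 against 71.1 ± 5.59. Their log2 differences of -0.81 and -0.65 passed the adjusted p but not the fold minimum, and both turned positive on FPKM as deposited (0.46 and 0.60), PFKM also without length (0.34).

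Within a library, the share of a family's FPKM that falls to 1 isoenzyme does not depend on the library's scale, and 17 such shares were compared. PFKP held 48.7%, 47.4% and 48.3% of the phosphofructokinase FPKM in the pika libraries and 9.31%, 9.01% and 8.38% in the mouse libraries. PFKL held 33.4% ± 1.65 in pika and 60.9% ± 1.64 in mouse, and PFKM 18.5% ± 1.24 and 30.2% ± 1.94. Each of these differences had p = 0.10 in a two-sided exact permutation test of 3 libraries against 3, the smallest p this design allows, and 0.11 after Benjamini-Hochberg adjustment over the 17 shares. The test therefore could not reach 0.05 for any share. Counted in reads not divided by length, PFKP held 49.3% and 19.0% and PFKM 20.4% and 20.3%, so the difference for PFKM was not seen in reads.

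The 4 bifunctional PFKFB enzymes set the level of fructose 2,6-bisphosphate, the main activator of phosphofructokinase. PFKFB1 was at 6.66, 7.74 and 6.92 in pika and at 2.78, 2.52 and 3.58 in mouse, a log2 difference of 1.04 (SE 0.16, adjusted p = 0.000164) that rested on 156 and 32 reads over 3 libraries. The call for PFKFB1 was lost with median-of-ratios scaling (0.90), without the second pika library (0.98) and without the second mouse library (0.96), and kept without length (1.05). PFKFB2, at 28.8 ± 2.36 and 14.7 ± 0.459, differed by 0.92 and was not called, and by -0.09 without length. PFKFB3, an inducible form with high kinase activity, was at 15.9 ± 2.63 and 14.7 ± 1.38 with overlapping libraries (0.11, adjusted p = 0.477). PFKFB4 overlapped too, at 19.2 ± 0.605 and 18.8 ± 0.334 (0.03, adjusted p = 0.757). Without length, PFKFB3 was called lower in pika, by -1.04. PFKFB2 had the largest share of the family in pika, 40.5% ± 0.926 against 28.8% ± 0.648 in mouse, and PFKFB4 the largest in mouse, 36.8% ± 2.02 against 27.1% ± 1.47; both had p = 0.10 in the exact permutation test. In reads, PFKFB2 still led in pika (41.3%), but PFKFB3 led in mouse (34.5%) and PFKFB4 held 28.5%.

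Of the genes from aldolase to enolase, GAPDH and ENO1 were called higher in pika. The 10 genes from aldolase to pyruvate kinase took 1.12% to 1.13% of the joined total in pika and 0.673% to 0.688% in mouse. GAPDH, the step that reduces NAD, was at 2849, 2935 and 2895 in pika and at 1275, 1206 and 1190.3 in mouse (1.24, SE 0.03, adjusted p = 4.47e-10). ENO1, the main enolase outside muscle and brain, was at 2592, 2619 and 2584 in pika and at 959.3, 909.0 and 930.6 in mouse (1.48, SE 0.03, adjusted p = 7.3e-11). GAPDH and ENO1 were not called with reads not divided by length (0.76 and 0.81). ENO1 had a mouse model 3.278 times as long as the pika model.

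ALDOA, TPI1, PGK1 and PGAM1 passed the adjusted p without reaching the fold minimum on the main scale, but all 4 were called higher on FPKM as deposited (1.92 to 2.26), and PGK1 (1.38) and PGAM1 (2.05) without length. ALDOA averaged 1217 ± 9.9 in pika against 768.5 ± 11.3 in mouse (0.66), TPI1 at 602.4 ± 5.76 and 386.2 ± 10.0 (0.64), and PGK1 at 1551 ± 35.3 and 977.3 ± 59.4 (0.67). PGAM1, at 858.5 ± 11.5 and 435.4 ± 32.9, lay just under the minimum (0.98) and passed it without the first or the third mouse library (1.01 and 1.02). Mouse rows for 2 processed copies of Pgam1 held 8.86% of the FPKM of Pgam1 and those copies, the largest such share among these steps. Copies were searched only by names built on a gene's symbol, so any under other names are not counted. PKM, the pyruvate kinase of most dividing cells, went the other way, at 1459.6 ± 25.0 in pika against 2018 ± 54.8 in mouse (-0.47), and was the most abundant of the 35 genes in mouse; its difference turned to 0.83 on FPKM as deposited. ENO2 and ENO3, the neuronal and muscle enolases, averaged 21.8 ± 1.42 and 26.5 ± 1.10 in pika against 25.0 ± 1.51 and 28.0 ± 3.16 in mouse, with adjusted p of 0.0812 and 0.492. ALDOC had 20 reads in pika and 31 in mouse over 3 libraries.

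Glucose-6-phosphate isomerase, the step between hexokinase and phosphofructokinase, is listed under GPI in pika and Gpi1 in mouse and so was not joined. It was looked up after the other values were seen, and stood at 545.1, 538.2 and 563.3 in pika and at 215.5, 193.2 and 201.1 in mouse, with no test.

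The most marked difference at the end of glycolysis lay in lactate dehydrogenase. LDHA and LDHB encode the M and H subunits of its tetramers, and the H subunit is typical of heart and other oxidative tissue. LDHB was at 643.2, 652.5 and 651.9 in pika and at 103.3, 87.6 and 95.9 in mouse, 6.79 times as high (2.75, SE 0.06, adjusted p = 1.66e-10). The difference was 3.57 without length and 3.99 on FPKM as deposited, and the gene models were of similar length, 1360 bases in pika and 1570 in mouse. LDHA was at 1315, 1313 and 1348 in pika and at 937.7, 889.3 and 889.2 in mouse, a difference of 0.55 that was not called, except on FPKM as deposited (1.84). LDHA stayed the more abundant of the pair in each library. LDHB held 32.8%, 33.2% and 32.6% of their FPKM in pika and 9.92%, 8.97% and 9.73% in mouse (p = 0.10, exact permutation test), and 24.2% and 4.77% of their reads. The ratio of LDHB to LDHA was 0.490 ± 0.007 in pika and 0.106 ± 0.006 in mouse.

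**Figure D2:**
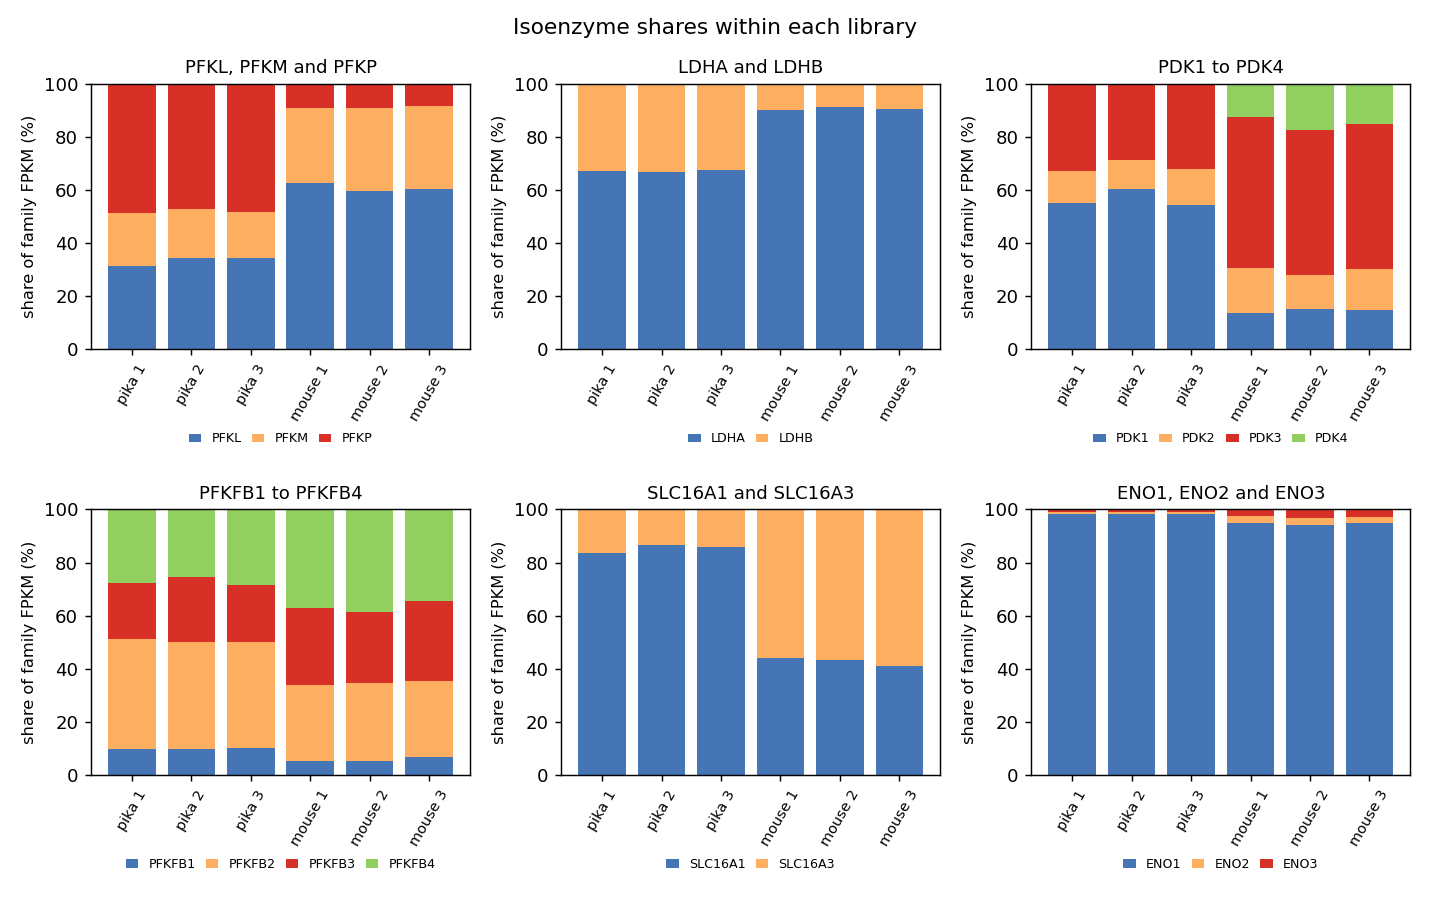
Share of each isoenzyme in its family's FPKM (percent, axis from 0) in each of the 6 libraries, 1 bar per library, for 6 families. PFKP took 48.1% ± 0.676 in pika and 8.90% ± 0.474 in mouse, LDHB 32.9% ± 0.305 and 9.54% ± 0.506, and PDK1 56.6% ± 3.19 and 14.6% ± 0.690.

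The transporters that carry lactate and pyruvate across the plasma membrane moved in opposite directions. SLC16A1 (MCT1), which works in uptake as well as release, was at 124.4, 129.2 and 132.7 in pika and at 37.7, 35.7 and 37.5 in mouse (1.77, SE 0.05, adjusted p = 2.05e-09, and 1.31 without length). SLC16A3 (MCT4), known for lactate export from glycolytic cells, was at 24.2, 19.9 and 21.8 in pika and at 48.0, 46.6 and 53.7 in mouse (-1.14, SE 0.10, adjusted p = 2.3e-06, and -1.97 without length). On FPKM as deposited SLC16A3 was no longer lower (0.11). SLC16A3 made up 14.6% ± 1.504 of the pair's FPKM in pika and 57.2% ± 1.501 in mouse (p = 0.10, exact permutation test), and 13.5% and 61.6% of their reads. The ratio of SLC16A1 to SLC16A3 was 5.91 ± 0.683 in pika and 0.7498 ± 0.045 in mouse.

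Around the pyruvate dehydrogenase complex, a different member of the PDK family led in each species. The 4 genes summed to 131.4 ± 6.09 in pika and 144.5 ± 8.99 in mouse after rescaling, but to 60.8 ± 2.79 and 27.2 ± 1.39 in FPKM as deposited. PDK1 was at 70.5, 76.9 and 75.3 in pika and at 21.3, 21.8 and 20.1 in mouse (1.77, SE 0.07, adjusted p = 1.22e-08). Without length its difference was 0.29 and not called, with a mouse model 5.92 times as long as that of pika. PDK3 was at 41.0, 36.5 and 43.4 in pika and at 87.7, 78.0 and 74.3 in mouse; its -0.97 fell just short of the fold minimum and passed it without the third library of either species and with median-of-ratios scaling (-1.15), but was -0.35 without length and 0.29 on FPKM as deposited. PDK2 overlapped between species, at 16.2 ± 2.44 and 21.9 ± 3.84, and differed by -0.41. PDK4, a kinase induced by fasting and glucocorticoids, was at 0.846, 0.243 and 0.887 in pika and at 19.1, 25.2 and 20.5 in mouse (-3.78, SE 0.20, adjusted p = 7.98e-08, and -3.25 without length). The pika value of PDK4 rested on 26 reads in 3 libraries and the mouse value on 198, over models of 3450 and 3511 bases.

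PDK1 held 56.6% ± 3.19 of the family in pika and 14.6% ± 0.690 in mouse, PDK3 30.7% ± 1.81 and 55.3% ± 1.39, and PDK4 0.497% ± 0.266 and 15.0% ± 2.58, each with p = 0.10 in the exact permutation test. For PDK2 the shares were 12.3% ± 1.31 and 15.1% ± 2.08, with p = 0.20 in the same exact test. In reads, PDK1 held 48.3% and 31.9%, PDK3 38.2% and 39.9%, and PDK4 1.11% and 14.8%. PDK1 thus led in pika and PDK3 in mouse on either measure.

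The subunits of the complex did not move together. PDHB, the E1 beta subunit, was at 330.9, 337.7 and 343.4 in pika and at 162.6, 154.0 and 155.8 in mouse (1.09, SE 0.04, adjusted p = 3.67e-09); it missed the fold minimum with median-of-ratios scaling (0.92) and was at 2.14 without length. PDHA1, the E1 alpha subunit that PDK kinases phosphorylate, averaged 197.8 ± 7.58 in pika against 350.9 ± 3.76 in mouse (-0.82, not called). It was called lower with median-of-ratios (-1.001) and upper-quartile scaling (-1.03) and without length (-1.17), and turned to 0.46 on FPKM as deposited. The ratio of PDHB to PDHA1 was 1.71 ± 0.086 in pika and 0.449 ± 0.017 in mouse. DLAT, the acetyltransferase core, was at 120.4 ± 0.894 and 64.8 ± 1.80 (0.88, not called), and was called higher without length (1.57) and on FPKM as deposited (2.10).

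The genes of the mitochondrial pyruvate carrier were called higher in pika, and had the largest gaps in model length of the list. MPC2 was at 113.7, 112.8 and 106.6 in pika and at 12.1, 12.4 and 14.0 in mouse (3.02, SE 0.08, adjusted p = 7.21e-10). MPC1 was at 115.1, 112.4 and 108.5 in pika and at 30.9, 27.8 and 31.4 in mouse (1.87, SE 0.07, adjusted p = 4.9e-09). The pika models were 397 and 249 bases long and the mouse models 7344 and 2082, and with reads not divided by length the differences were -0.04 for MPC2 and -0.11 for MPC1. A mouse row for a processed copy, Mpc1-ps, held 49.5% of the FPKM of Mpc1 and that copy, so the mouse level of MPC1 is uncertain.

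In the pentose phosphate branch, which makes NADPH and ribose, PGD and TKT were higher in pika. PGD, the NADPH-forming 6-phosphogluconate dehydrogenase, was at 369.7, 368.8 and 367.7 in pika and at 116.2, 120.8 and 124.3 in mouse (1.61, SE 0.04, adjusted p = 3.84e-10), but was not called without length (0.78). TKT, the transketolase, was at 381.6, 398.9 and 374.7 in pika and at 125.7, 123.0 and 114.4 in mouse (1.66, SE 0.05, adjusted p = 1.06e-09), and was still called without length (1.06). TALDO1, the transaldolase that works beside it, was at 122.5 ± 7.93 and 167.0 ± 7.35 (-0.45, not called, and 0.83 on FPKM as deposited). The ratio of TKT to TALDO1 was 3.15 ± 0.112 in pika and 0.725 ± 0.028 in mouse.

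**Figure D3:**
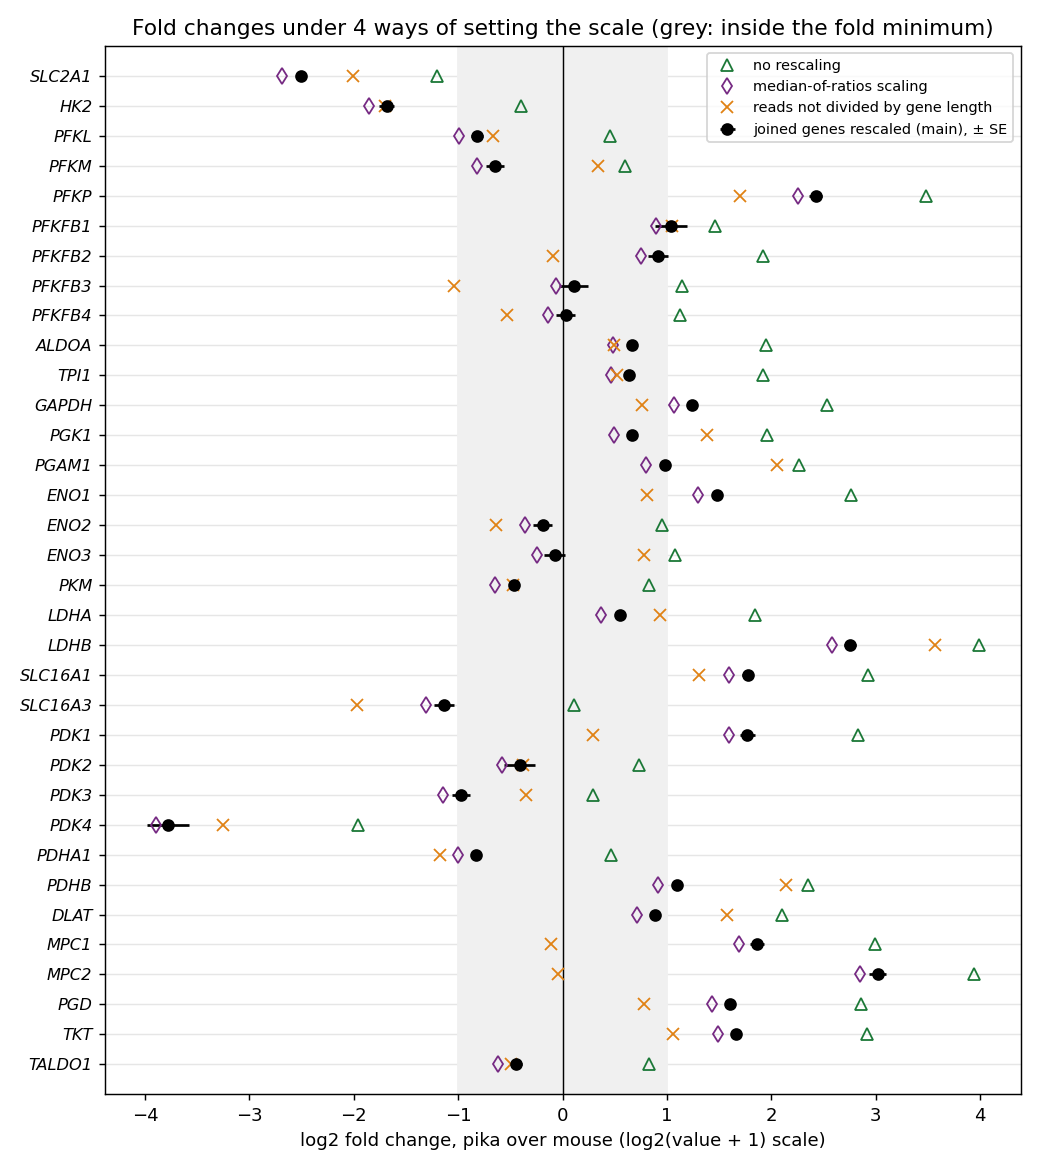
Log2 difference of pika over mouse for each of the 34 tested genes; black circles are the rescaled values with their SE, green triangles FPKM as deposited, purple diamonds median-of-ratios scaling and orange crosses reads not divided by gene length, and grey marks differences under the fold minimum of 1. LDHB runs from 2.58 to 3.99 and SLC2A1 from -2.68 to -1.20 over these settings, while MPC1 and MPC2 reach -0.11 and -0.04 at the orange crosses.

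Mouse models were longer than pika models for 32 of the 34 tested genes, with a median ratio of 2.19 (2.25 over all tested genes). Over all genes, those with a mouse model above 3 times as long were called higher in pika in 38.4% of cases and lower in 16.9%, while those with a ratio between 0.8 and its inverse were called higher in 16.7% and lower in 30.9%. Of the 11 listed genes above 3, 7 were called higher (PFKP, ENO1, PDK1, MPC1, MPC2, PGD and TKT) and 1 lower (SLC16A3). Of the 6 with near-equal models, LDHB and PDHB were higher and PDK4 lower, and PFKM, PGAM1 and ENO3 were not called. The part of model length in the other calls was tested only by leaving length out, with the values given beside the called genes.

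**Figure D4:**
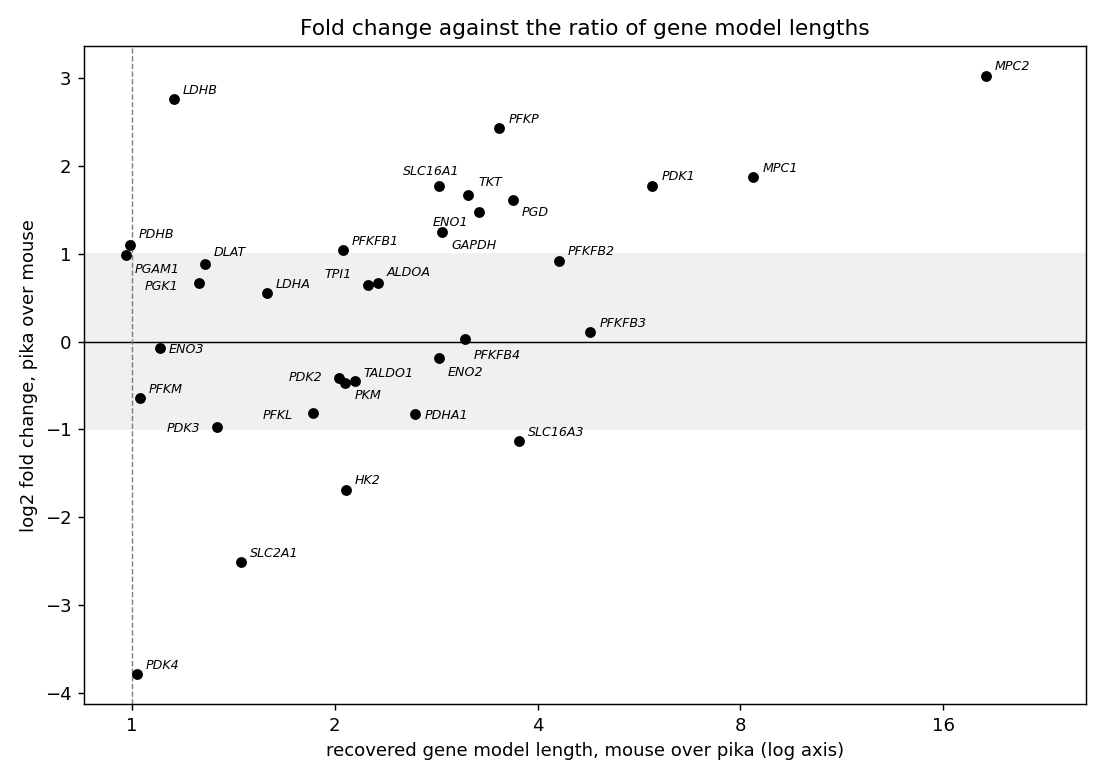
Log2 difference of pika over mouse (rescaled FPKM + 1) against the ratio of recovered gene model lengths, mouse over pika, on a log axis, for the 34 tested genes; grey marks differences under the fold minimum of 1 and the dashed line equal lengths. LDHB and PDK4 lie beside the dashed line at 2.75 and -3.78, and MPC2 lies at the far right with a ratio of 18.5.

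Further genes of the same pathways, in 6 lists of 73 symbols, were read from the same fit. Of 45 tested, 8 were called higher and 12 lower in the pika cells, beside 28.7% and 23.5% of all genes, with a median of -0.22. On FPKM as deposited 22 were higher and 5 lower, beside 58.3% and 10.7%, and without length 8 and 14, beside 25.9% and 27.7%. In the list of other transport genes, 1 of 9 tested genes was higher and 6 were lower; these counts were 3 and 2 on FPKM as deposited, where EMB and TXNIP stayed lower. TXNIP, an arrestin that lowers glucose uptake and is induced by glucose, was at 0.579, 0.508 and 0.834 in pika and at 235.2, 223.0 and 232.2 in mouse (-7.14, adjusted p = 3.01e-11, on 20 and 1924 reads). Its relative ARRDC4, named after its value was seen, was at 7.09 ± 0.442 and 30.7 ± 5.69 (-1.96). EMB, a partner protein of monocarboxylate transporters, differed by -5.79, and BSG, the partner of SLC16A1 and SLC16A3 and also named after its value was seen, by -1.68 (393.4 ± 14.2 and 1258 ± 7.72). SLC2A9, a urate transporter, differed by -2.44 on 8 reads in pika, and SLC2A13 by 2.97, or 0.71 without length. SLC2A8, the sixth gene called lower and named after its value was seen, differed by -1.34. BSG (-0.38), ARRDC4 (-0.65), SLC2A9 (-0.91) and SLC2A8 (-0.14) were not called on FPKM as deposited.

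Among other pyruvate genes, 3 of 8 tested were called higher and 5 were not called, beside 28.7% of all genes called higher and 23.5% lower. PDHX, which anchors E3 to the pyruvate dehydrogenase core, was at 140.1, 137.9 and 143.4 in pika and at 16.4, 21.7 and 17.2 in mouse (2.87, and 2.79 without length). The phosphatases PDP1 and PDP2, which undo PDK phosphorylation, differed by 1.26 and 1.39, and by 2.16 and 0.65 without length, where PDP2 was not called. In the other pentose phosphate genes, H6PD, the enzyme of the endoplasmic reticulum, was at 0.560, 0.118 and 0.753 in pika and at 170.2, 183.1 and 165.7 in mouse (-6.90, on 13 and 1201 reads), and RPIA differed by 1.32, or 0.17 without length. ADPGK, an ADP-dependent glucokinase, was higher by 1.49, but by -0.21 without length, and GAPDHS, the sperm form of GAPDH, was lower by -3.16 on 5 and 45 reads.

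In glycogen metabolism and gluconeogenesis, the branching enzyme GBE1 was higher (1.19), PHKB was lower (-1.20, but 0.02 on FPKM as deposited) and 9 of the 12 tested genes were not called. Of the genes that lead glycolytic carbon to serine and hexosamines, 3 of 7 were called lower and 4 were not called. The shares over all genes, for each list here, were 28.7% called higher and 23.5% lower. PHGDH, the first enzyme of serine synthesis, was at 25.9, 21.5 and 20.1 in pika and at 209.6, 205.0 and 204.8 in mouse (-3.15, adjusted p = 9.64e-10), a call that held on FPKM as deposited (-1.81). PSAT1 (-1.11) and GFPT2 (-1.26) were not called there. Of 8 tested regulators of these pathways, EPAS1 (2.34) and PRKAA2 (3.04) were higher in pika, and HIF1A (0.26) and MYC (0.99) were not called, except on FPKM as deposited (1.54 and 2.22). PRKAA2 was at 13.5 ± 1.09 in pika and 0.761 ± 0.183 in mouse, on 376 and 16 reads.

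Markers of other cell types also differed between the cultures. Skeletal muscle markers summed to 2.63 to 4.11 in pika and 204.6 to 232.6 in mouse, 2 of the 9 joined genes reaching 1 FPKM in mouse, of which ACTA1 was at 198.4 ± 17.9, while CKM was at 0 in all libraries. Endothelial markers summed to 0.707 to 1.60 and 34.5 to 39.5, with 1 of 8 (TEK) at or above 1 FPKM in mouse. Neuronal markers summed to 82.4 to 85.2 and 36.8 to 45.0, and their members went opposite ways. MAP2 led in pika (62.0 ± 0.919, against 2.93 ± 0.505 in mouse) and TUBB3 led in mouse (33.0 ± 2.49, against 10.6 ± 2.15 in pika). For macrophage markers the sums were 14.1 to 15.2 and 36.8 to 44.6, for keratinocyte markers 22.7 to 23.7 and 20.0 to 22.2, for melanocyte markers 68.1 to 78.5 and 54.8 to 58.3, and for adipocyte markers 39.3 to 42.1 and 31.7 to 34.4. The part of these cells in the differences above was not tested.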

How the data were processed

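RNA-seq of cultured fibroblasts from pika and mouse, 3 libraries each, was used as gene tables of FPKM that the authors deposited. Per the submitters' processing notes, CASAVA 1.9, STAR 2.6.1a, featureCounts and edgeR 3.28.1 were used, and GRCm38 is the only build named; the pika genome and the annotations are not given in the sources used here. Genes were joined by upper-cased symbol, every library was scaled to a joined-gene sum of 1000000, and genes whose mean deposited FPKM reached 1 in either species were tested with limma 3.58.1 (trend, R 4.3.3) on log2(value + 1), with Benjamini-Hochberg adjustment and calls where the adjusted p was under 0.05 and the log2 difference at least 1 in size.

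Whole reads and model lengths were recovered from the steps between deposited FPKM values; they may be too small by a whole factor shared within a library or gene. Library totals came to 7703576 to 8481030 reads in pika and 3663102 to 5758950 in mouse, of which the recovered reads held 95.7% and 96.3% to 96.4%. Shares of isoenzymes were compared with exact permutation tests (scipy 1.17.1). The limma fit was tried on simulated data. It called 98 of 99 tested genes given a 4-fold change with the correct sign, and 97 of 97 given a 3-fold change. Among 9521 tested genes given no change, 1 was called. These counts do not cover the permutation tests of shares. They also do not show how differences in model length or library scale between the species affect the calls. All 37 listed genes may be named; from each other pathway list up to 4 called genes with the largest difference are named, or up to 2 further tested genes of highest level where fewer than 2 were called, and of regulators always HIF1A, EPAS1 and MYC. From each marker list up to 3 genes of highest level are named. Other markers, at 0 or far apart between species, were named after their values were seen. Some genes that this rule would name are not reported here. The genes, lists and tests were chosen with earlier results of these data known. Alternatives were other scalings, pseudocounts and filters, limma without trend, a replicate block, reads without length and leaving out each library.

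Libraries with the same number did not deviate together, with correlations of -0.00907, 0.0483 and 0.00925, so the numbers were not taken as pairs. Replicates of a species differed beyond counting error, with a chi-square per gene from 1.17 to 1.55.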

Additional observations from a re-analysis of the deposited data

How the results depend on the processing

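Scale moved the counts most. Without rescaling, 6029 genes were called higher and 1106 lower (84.5% of calls higher, against 55.0% on the main scale, 48.9% with median-of-ratios and 47.7% with upper-quartile scaling), 22 and 2 of the listed genes were called, and their median was 1.88. There PFKL (0.46), PFKM (0.60), ENO2 (0.96), ENO3 (1.08), PKM (0.83), SLC16A3 (0.11), PDK2 (0.73), PDK3 (0.29), PDHA1 (0.46) and TALDO1 (0.83) changed direction. Median-of-ratios and upper-quartile scaling gave medians of 0.47 and 0.45 and reversed PFKFB3 (-0.0594 and -0.0857) and PFKFB4 (-0.14 and -0.16), and upper-quartile scaling called 7 listed genes lower. With reads not divided by length the median was 0.32, and PFKM (0.34), PFKFB2 (-0.0915), PFKFB3 (-1.04), PFKFB4 (-0.53), ENO3 (0.78), MPC1 (-0.11) and MPC2 (-0.0442) reversed, as did the shares of PFKM (0.15 percentage points, pika minus mouse) and ENO3 (0.021). A filter at 5 FPKM left 1584 genes called lower, and no filter gave a median of 0.64. The cause of these changes was not tested, apart from what each setting itself removes.

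Leaving out 1 library gave medians from 0.6356 to 0.6512 and 11 to 13 listed genes higher and 4 to 5 lower; PFKFB3 then ranged from -0.018 (without pika library 2) to 0.1744, and ENO3 from -0.131 to 0.0131 (without mouse library 2). A replicate block gave 2972 genes higher and 2433 lower, with 12 and 4 of the listed genes, and changed no call among them. A pseudocount of 0.1 and limma without trend also left 12 higher and 4 lower. Shares of HK1 with HK2 and of SLC2A1 with SLC2A3 were not run. Depth limits PDK4 in pika, PFKFB1 in mouse and ALDOC in both species, each with at most 32 reads over 3 libraries.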
